A study of Mus musculus with 16 samples.

Results

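The miR-322, miR-503, miR-351 and miR-450 cluster is a group of miRNA genes that lie one after the other on the mouse X chromosome. Of its mature products, 6 were followed in developing sciatic nerve: miR-322, its passenger strand miR-322*, miR-503, miR-351, miR-450a-5p and miR-542-3p. They were taken by name from the scanner output of a mouse miRNA array, with all their probes, and made up 6 of the 650 miRNA names and 16 of the 1857 probes on the array. All 6 passed the filter on undetected miRNAs, which 281 of the 650 names passed.

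The nerves came from mice of the Dicer1tm1Bdh/J strain, in which both or one of the Dicer alleles are flanked by loxP sites. Mutants were Dicer fl/fl Dhh-Cre+ and controls were Dicer wt/fl Dhh-Cre+, so the controls also carried Cre and 1 floxed allele. Each nerve was dissected either at E17, late in gestation, or at p4, 4 days after birth. Every mouse had its own array and there were 4 mice to each of the groups, wt-E17, fl-E17, wt-P4 and fl-P4. Within the nerve the desert hedgehog promoter drives Cre in Schwann cells. The paper expected Dicer to be lost in these cells alone, which the arrays do not test. Whole nerve RNA holds Schwann cells and the other cells of the tissue. In such samples fewer cells of a type and less miRNA per cell cannot be told apart. Both sexes were used, with more males among the wt-P4 mice than in the other groups according to the study's methods, and the sex of each array is not used here although the cluster is X-linked.

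Dicer cuts hairpin precursors into mature miRNAs, which then pair with target mRNAs mainly through the seed, bases 2 to 8 from their 5′ end. miR-322 and miR-503 belong to the wider miR-15/16 group, and they are known for slowing the cell cycle, among others in differentiating muscle cells, by repressing cyclins and Cdc25a. miR-351 has the seed of the miR-125 family, the mammalian counterparts of worm lin-4. Less is known of miR-450a-5p and miR-542-3p, the latter of which is known to repress survivin, a protein needed for cell division.

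The 6 mature sequences, from RefSeq on build GRCm38.p6, are shown because the seeds divide the cluster. Capitals mark the seed. RefSeq lists the array's miR-322, miR-503 and miR-351 as the 5p arms of their hairpins and miR-322* as the 3p arm, and all 6 names found a match.

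mmu-miR-322: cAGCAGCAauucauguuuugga
mmu-miR-322*: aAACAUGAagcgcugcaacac
mmu-miR-503: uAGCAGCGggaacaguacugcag
mmu-miR-351: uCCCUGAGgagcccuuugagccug
mmu-miR-450a-5p: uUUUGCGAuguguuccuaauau
mmu-miR-542-3p: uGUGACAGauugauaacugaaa

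The 6 seeds are all different. The seeds of miR-322 and miR-503 differ by 1 base, A8G, with miR-322's base first and the position counted from the 5′ end of the mature miRNA. The miR-322 seed occurs in 10 of the 1679 mature mouse names in the RefSeq table and the miR-351 seed in 5, whereas the other 4 seeds each occur in 1 name. The miRNAs below carry the same seeds from other loci and serve as the comparison in a later paragraph.

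mmu-miR-16: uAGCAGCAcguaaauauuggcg
mmu-miR-195: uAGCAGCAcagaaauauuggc
mmu-miR-497: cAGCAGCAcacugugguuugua
mmu-miR-125b-5p: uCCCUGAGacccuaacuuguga

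The mature products of the 7 hairpins of the cluster span 6320 bases of the minus strand at chrX:53048008-53054327 (GRCm38.p6), between the genes Hprt and Plac1. In the order of transcription they are Mir322, Mir503, Mir351, Mir542, Mir450-2, Mir450-1 and Mir450b. The first 3 overlap the annotated long noncoding RNA C430049B03Rik. Products of Mir503 start 219 bases after those of Mir322, and the widest gap, of 3801 bases, separates Mir351 from Mir542. miR-450a-5p has the same sequence from Mir450-2 and Mir450-1, so its probes cannot say which hairpin it came from.

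Signals are given as the log2 of the median spot intensity after quantile normalization across the 16 arrays, with the brightest probe standing for a miRNA. Local background was not subtracted on this scale, which compresses the differences of dim miRNAs. The sample labels do not name the slides. Mutants and controls were taken to share slides, while age and slide may coincide, in which case their differences cannot be told apart. Arrays of a group correlated with r between 0.962 and 0.998, no spot was saturated, and the fl-E17 array 3 had the highest local background, with a median of 55 against 20 to 39 on the other arrays. Dicer itself is not measured by a miRNA array, so the genotype labels could not be checked on the deleted gene.

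miR-322 was the brightest product of the cluster by this measure and was well above background on all 16 arrays. By background-subtracted signal summed over its probes it ranked between 29 and 48 of the 650 miRNAs on each array. In the E17 controls its log2 signals were 8.45, 8.66, 8.68 and 8.45. In the E17 mutants they were 8.97, 8.66, 8.56 and 8.90. The ranges overlapped, with the fl-E17 arrays 2 and 3 inside the control range and arrays 1 and 4 above all controls.

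In the p4 controls the miR-322 signals were 8.42, 8.41, 8.14 and 8.48. In the p4 mutants they were 8.40, 9.21, 8.66 and 8.76. Of the 4 p4 mutants, 3 thus lay above all p4 controls, and the fl-P4 array 1 lay within the control range. The group means ± SD (n = 4) came in the order fl-E17 (8.77 ± 0.195), fl-P4 (8.76 ± 0.337), wt-E17 (8.56 ± 0.126) and wt-P4 (8.36 ± 0.151), and arrays overlapped between each neighbouring pair in this order.

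miR-503 was well above background on all 16 arrays as well. Its signals were 6.96, 7.12, 7.21 and 7.48 in the E17 controls and 7.30, 7.66, 7.63 and 7.59 in the E17 mutants. At p4 they were 7.23, 7.19, 7.05 and 7.14 in the controls and 7.01, 7.64, 7.46 and 7.58 in the mutants. As for miR-322, 3 of the 4 p4 mutants were above all p4 controls, and the exception was again the fl-P4 array 1, which was here the lowest of the 8 arrays. The second miR-503 probe was well above background on 0 of the 16 arrays.

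The other 4 products were dim, with mean log2 signals from 6.27 to 6.49, and ranked between 177 and 221 of the 281 expressed miRNAs. miR-450a-5p, detected by the scanner software on all 16 arrays, was the only one of them whose brightest probe was well above background on all 4 fl-P4 arrays. Its p4 signals were 6.43, 6.45, 6.25 and 6.45 in the controls and 6.59, 6.70, 6.49 and 6.68 in the mutants, without overlap. At E17 they were 6.31, 6.401, 6.33 and 6.50 in the controls and 6.56, 6.55, 6.48 and 6.67 in the mutants, where only the lowest mutant fell below the highest control.

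miR-322*, the strand opposite to miR-322 in its hairpin, was well above background on 9 of the 16 arrays. Its p4 signals were 6.35, 6.30, 6.24 and 6.27 in the controls and 6.44, 6.49, 6.38 and 6.37 in the mutants, again without overlap. miR-542-3p ranged from 6.18 to 6.60 and was well above background on 11 arrays. miR-351 ranged from 6.14 to 6.39 and was well above background on 6 arrays, the fewest among the members.

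**Figure D1:**
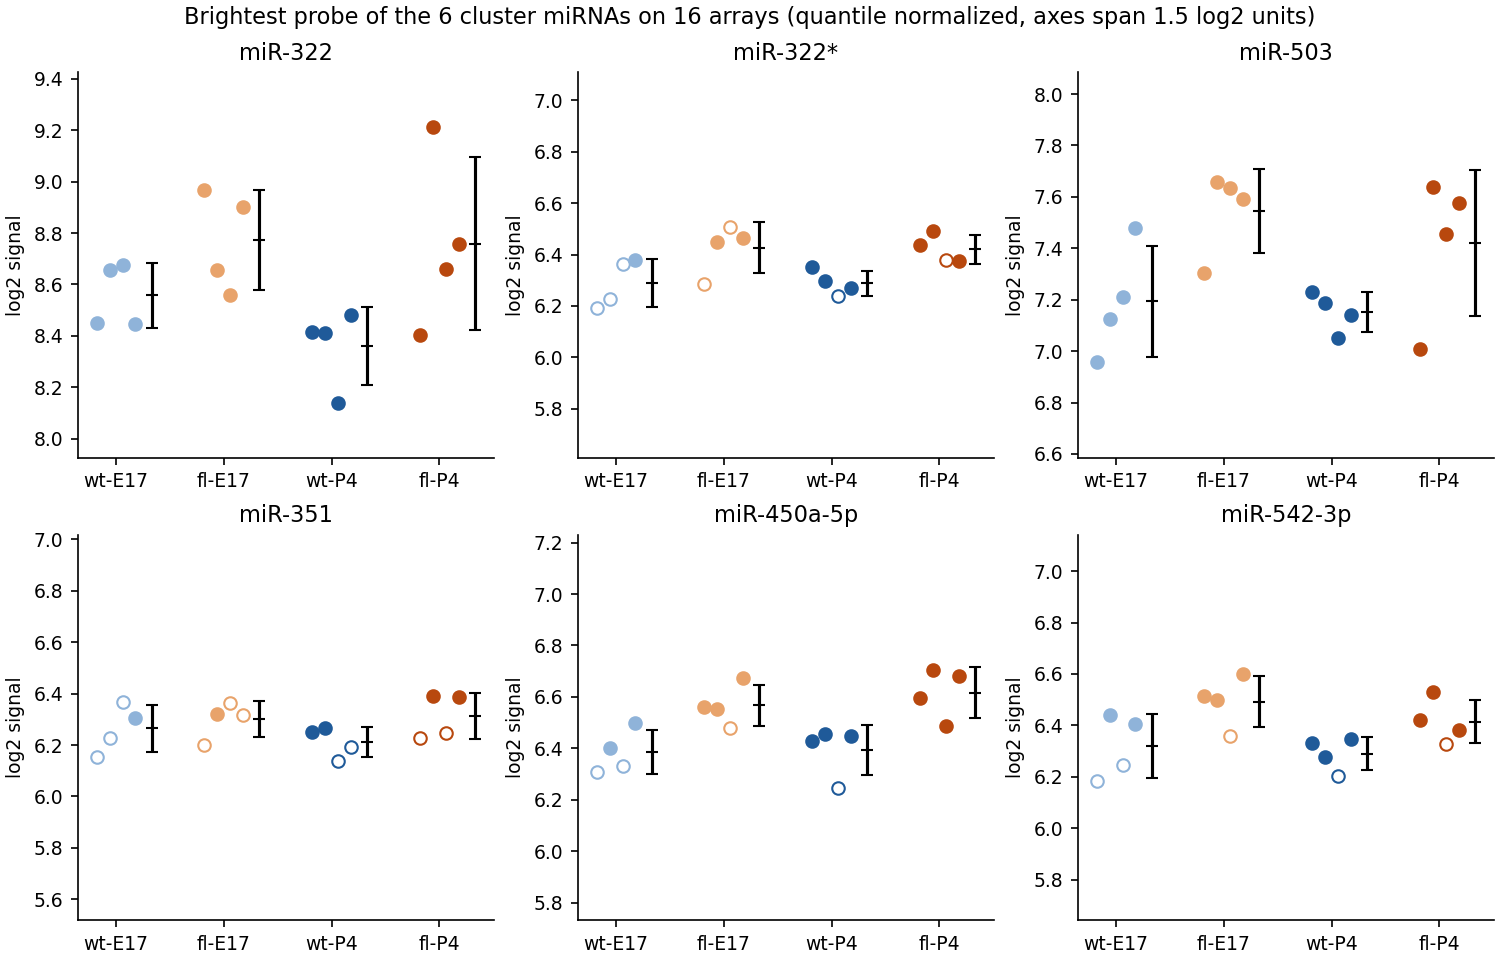
Log2 signal (y axis, quantile normalized) of the brightest probe of each of the 6 cluster miRNAs on 16 arrays, by group (x axis, 4 arrays each in replicate order). Filled circles are arrays on which at least 0.5 of the probe's spots were well above background, open circles the others, and black bars are mean ± SD. For miR-322 and miR-503 the fl-P4 array 1 lies with or below the p4 controls while the other 3 p4 mutants lie above them, and the p4 groups are apart for miR-322* and miR-450a-5p.

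The comparison of mutants with controls at p4 asks what loss of Dicer in Schwann cells does to each miRNA when control nerves myelinate. A call needed an adjusted p no higher than 0.05 together with a log2 difference of 0.5 or more. All 6 products had a positive difference, as did 162 of the 281 expressed miRNAs, though 5 of 6 were below 0 without normalization. Of the 6, 0 were called, where 21% of the 281 expressed miRNAs were called, 10.3% as higher and 10.7% as lower. miR-322 was 0.40 ± 0.145 (SE) log2 units higher in mutants, though not with positive-control scaling or none (95% interval 0.09 to 0.71, limma adjusted p = 0.0383), and miR-450a-5p was 0.22 ± 0.0626 higher (0.09 to 0.36, adjusted p = 0.0104). The latter had 0.31 (adjusted p = 0.583) with positive-control scaling, 0.18 (0.181) in the authors' deposited table and 0.0014 (0.999) without normalization. These 2 of 6 passed the test without a limit on size, as did 29.5% of all expressed miRNAs in the same direction. An unadjusted p below 0.05 was reached by 3 of 6, and by 170 of all 281 expressed miRNAs.

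The values of the other products at p4 were 0.27 ± 0.133 for miR-503 (limma adjusted p = 0.123), 0.13 ± 0.0539 for miR-322* (0.0632), 0.12 ± 0.0654 for miR-542-3p (0.141) and 0.10 ± 0.055 for miR-351 (0.156). For 2 of 6 products, miR-322* and miR-450a-5p, the p4 arrays did not overlap on the brightest probe and mutants were higher, which held for 24.2% of all expressed miRNAs. On the second miR-450a-5p probe the p4 arrays did overlap, with 6.12 to 6.31 in controls and 6.28 to 6.45 in mutants. The other miR-322* probes were well above background on 0 of the 16 arrays. The median over the 6 products was 0.18, beside 0.06 over all expressed miRNAs. The second miR-322 probe, also well above background on all 16 arrays, gave 0.24 ± 0.135 with a limma adjusted p of 0.177, a lower value than the brightest probe.

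The miR-322 difference at p4 rested on few arrays. Without the fl-P4 array 2, its highest, the difference was 0.25 and the limma adjusted p 0.115, and without the wt-P4 array 3, its lowest control, they were 0.32 and 0.119. Without the fl-P4 array 1 the difference was 0.51 with an adjusted p of 0.00859, which met both limits. miR-503 without the same array had 0.40 with a limma adjusted p of 0.0101, where it did not pass with all arrays. Over all 16 omissions of 1 array the adjusted p lay between 0.00859 and 0.119 for miR-322 and between 0.00322 and 0.0376 for miR-450a-5p, after quantile normalization.

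The direction also depended on how arrays were put on 1 scale. The p4 mutant arrays were dimmer as a whole, with a summed signal of 56841 to 83630 against 122860 to 154076 in the controls. Without normalization miR-322 had a difference of -0.37 (limma adjusted p = 0.148) where the median of all expressed miRNAs was -0.19, and with scaling to the array's positive-control probes it had -0.06 where the median was 0.12. With each array scaled to its 75th percentile, 5 of 6 products were called higher at p4, all but miR-322. The brightest miR-503 probe had 0.49 there, under the size limit, so that miR-503 was called by its second probe, which is not well above background on any array. The median of all miRNAs was then 0.47, and 169 of 281 were called higher. Without normalization 1 miRNA was called higher and 89 lower, against 29 and 30 after quantile normalization. No normalization, positive-control scaling and 75th percentile scaling differ only by 1 constant per array. Values relative to the median of all miRNAs are therefore the same under these 3 by construction and count as 1 result. On that measure miR-322 had -0.18 and the 4 dim products had 0.15 to 0.19, while miR-322 had 0.33 after quantile normalization.

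**Figure D2:**
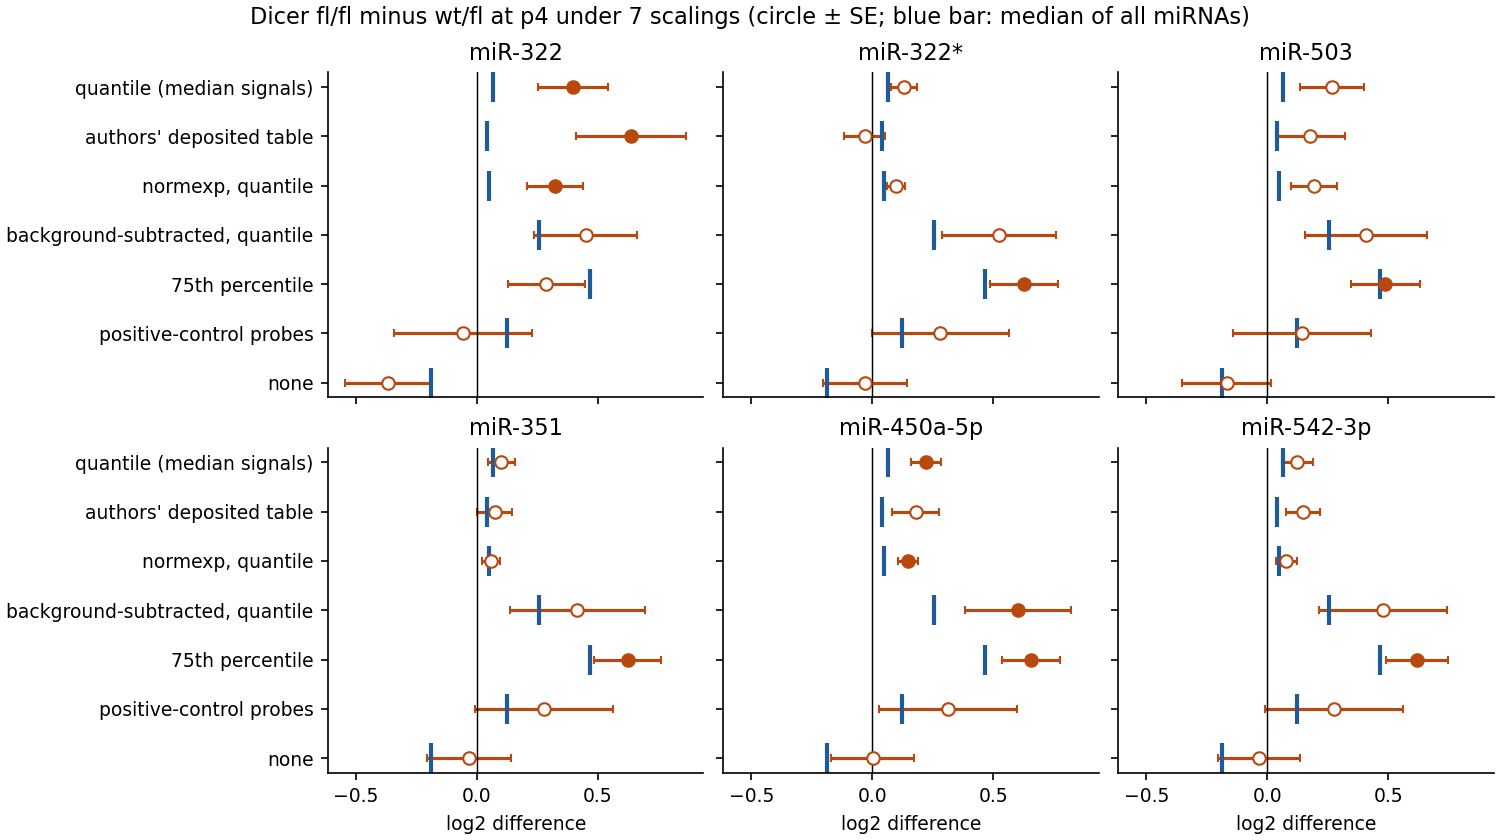
Log2 difference between p4 mutants and p4 controls (x axis, circle ± SE, 4 arrays per group) of the 6 cluster miRNAs under 7 ways to process the arrays (y axis), with filled circles for an adjusted p of at most 0.05 and blue bars for the median of all 281 expressed miRNAs. miR-322 lies at 0.40 after quantile normalization, at -0.06 with positive-control scaling and at -0.37 with none, and the blue bar moves with the scaling from -0.19 to 0.47.

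Taken as a share of each array's own summed signal, the 6 products together accounted for 0.558%, 0.593%, 0.479% and 0.552% in the p4 controls and for 0.615%, 1.05%, 0.912% and 0.802% in the p4 mutants. At E17 the shares were 0.594%, 0.742%, 0.756% and 0.773% in controls and 0.916%, 0.874%, 0.832% and 1.04% in mutants. The shares of the 6 together did not overlap between genotypes at either age, and the mutants were higher. How often this holds for other miRNAs was not tested. The share of miR-322 alone did overlap, with 0.377% to 0.457% in p4 controls and 0.438% to 0.799% in p4 mutants. At E17 it was 0.462% to 0.585% in controls and 0.529% to 0.738% in mutants. At p4 the array totals by which the shares are divided were lower in mutants. The summed signal of the 6 was not higher in p4 mutants, at 400 to 876 scanner units against 632 to 914 in the p4 controls. At E17 the summed signal overlapped as well, with every mutant array inside the range of the controls. miR-322 supplied most of it, with 63.5% to 78.8% of the summed signal of the 6 on each array.

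**Figure D3:**
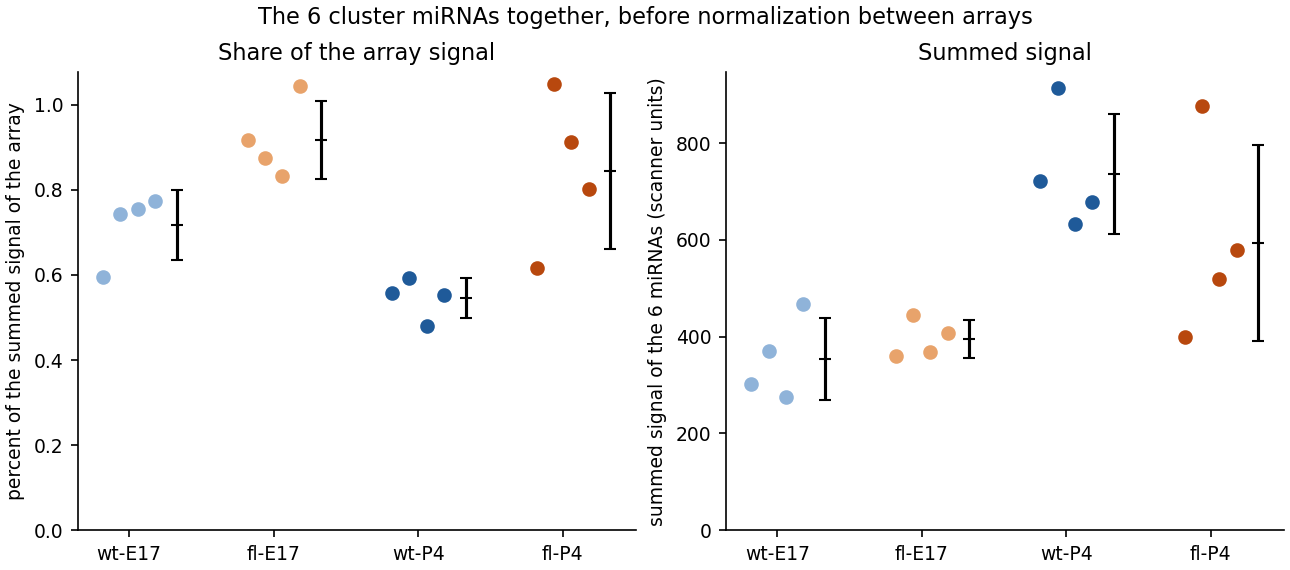
The 6 cluster miRNAs together, by group (x axis, 4 arrays each in replicate order, bars mean ± SD), as percent of the summed background-subtracted signal of the array (left) and as their summed signal in scanner units (right), without normalization between arrays. The share is 0.479% to 0.593% in wt-P4 and 0.615% to 1.05% in fl-P4, while the summed signals of the genotypes overlap at p4 and at E17.

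At E17, before control nerves myelinate, all 6 differences were again positive, as were 138 of all 281 expressed miRNAs, and 0 of 6 were called, against 6.05%. The 6 were positive under all 7 ways of processing as well. However, the median of all miRNAs was itself 0.19 without normalization, 0.20 with the 75th percentile and 0.21 with positive controls. miR-322 lay below that median, at -0.07 relative to it. miR-503 had a value of 0.35 ± 0.133 (SE; 95% interval 0.07 to 0.64, limma adjusted p = 0.104). miR-322 had 0.21 ± 0.145 (adjusted p = 0.376) and miR-450a-5p 0.18 ± 0.0626 (adjusted p = 0.0759). miR-542-3p had 0.17, miR-322* 0.14 and miR-351 0.04, and the limma adjusted p over the 6 products ran from 0.0759 to 0.736. Without the wt-E17 array 4, miR-503 had 0.45 (adjusted p = 0.0406) and miR-450a-5p 0.22 (adjusted p = 0.0394), both under the size limit. With an unadjusted p below 0.05 there were 4 of 6, against 95 of all 281 expressed miRNAs, and for 0 of 6 did the arrays of the genotypes stand apart, where mutants stood above controls for 11% of all expressed miRNAs.

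The difference between the mutant effects at the 2 ages asks whether the genotype difference changed between E17 and p4. It was called for 0 of 6 products, against 9.61% of all expressed miRNAs, with values from -0.09 for miR-503 to 0.18 for miR-322. The intervals were wide for the bright products, from -0.26 to 0.62 for miR-322, and narrow for the dim ones, from -0.17 to 0.16 for miR-322*. The limma adjusted p was at least 0.638 for each.

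Between E17 and p4 the products of the cluster showed small differences. In controls 0 of 6 were called, against 20.3% of all expressed miRNAs, and the values ran from -0.20 ± 0.145 (SE) for miR-322 (limma adjusted p = 0.309) to 0.01 for miR-450a-5p. In mutants 0 of 6 were called, against 10.7%, with values from -0.13 for miR-503 to 0.05 for miR-450a-5p. The 95% intervals reached from -0.51 to 0.25 in controls and from -0.41 to 0.30 in mutants, and 0 of 6 reached an unadjusted p below 0.05 in either genotype, which 155 of all 281 expressed miRNAs did in controls and 129 in mutants. The p4 control arrays were brighter as a whole than the E17 ones, and these values too moved with the scaling. Without normalization miR-322 was 1.00 higher at p4 in controls (adjusted p = 1.69e-06) where the median of all miRNAs was 0.57. With positive-control scaling miR-503 had a difference of -0.79 (adjusted p = 0.00803) where the median was -0.94.

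**Figure D4:**
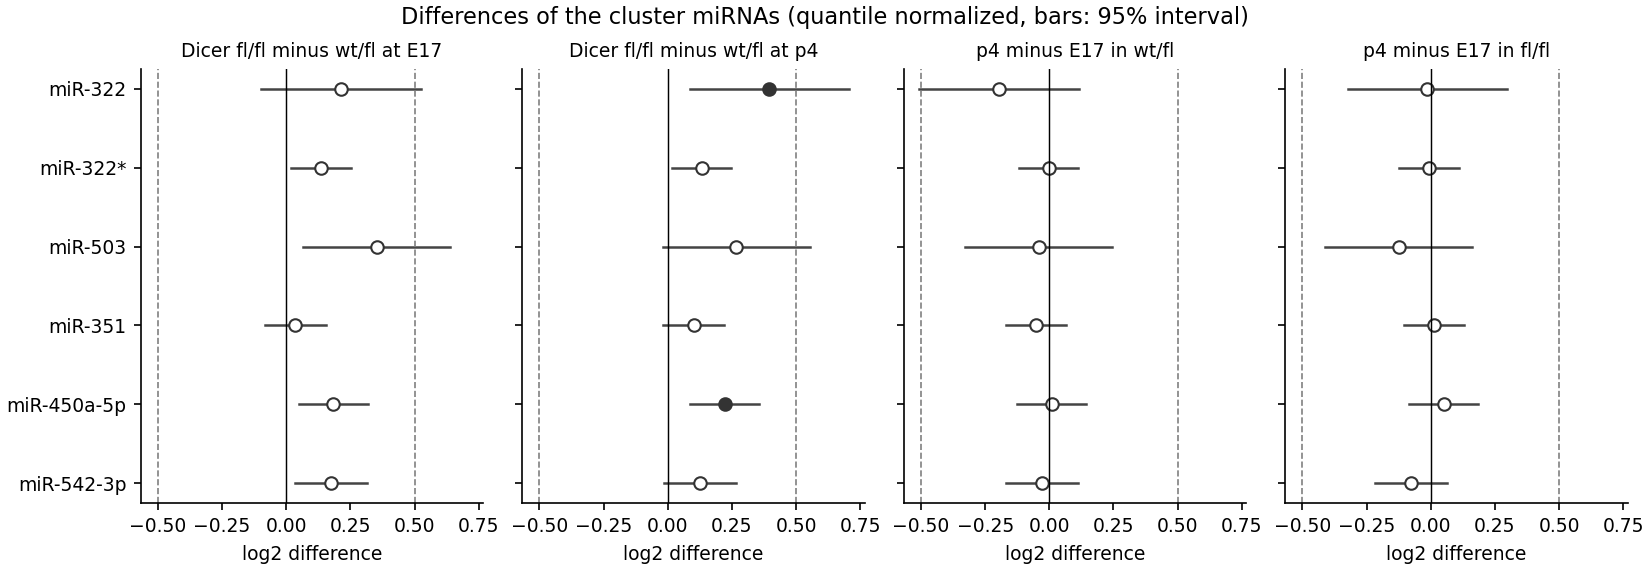
Log2 differences (x axis) of the 6 cluster miRNAs (y axis) in 4 comparisons after quantile normalization, with 95% intervals from limma and 4 arrays per group. Filled circles have an adjusted p of at most 0.05 and dashed lines mark the size limit of 0.5; only miR-322 (0.40) and miR-450a-5p (0.22) at p4 are filled, and under other scalings the miR-322 value fell to -0.37 without normalization and -0.06 with positive-control probes.

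The miRNAs that share seeds with the cluster but come from other loci had other values. The list holds miR-15a, miR-15b, miR-16, miR-195 and miR-497, all with the miR-322 seed, and was chosen for the seed. At p4, 5 of 5 passed the test of p as lower in mutants, which 30.2% of all expressed miRNAs did, and 2 of 5, miR-15a and miR-16, also met the size limit. miR-195 had -0.48 and fell short of that limit here. The paper listed miR-195, at the same size limit, as lower in p4 mutants and higher with age in controls. It also reported both changes by real time PCR. miR-15a fell by 0.81 ± 0.134 (SE; limma adjusted p = 0.000207) and miR-16 by 0.71 ± 0.141 (adjusted p = 0.000922), and the median of the list was -0.48. The 5 values were below 0 under all 7 ways of processing the arrays. With age in controls the list was divided, and miR-322 had -0.20. miR-195 was 1.25 ± 0.0616 higher (limma adjusted p = 3.92e-09) and miR-497 0.95 ± 0.0643 higher (adjusted p = 5.67e-08). miR-15b was 0.46 lower (-0.46 ± 0.133, adjusted p = 0.0137), while miR-15a had -0.04 (adjusted p = 0.859) and miR-16 0.05 (adjusted p = 0.828).

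Differences between 2 miRNAs on the same array do not depend on a common scale factor, but quantile normalization can still change them. On the p4 arrays miR-322 minus miR-16 was 1.102 log2 units higher in mutants than in controls, miR-322 minus miR-195 was 0.88 higher and miR-503 minus miR-16 was 0.97 higher, without overlap of the arrays in any of the 3. Each reached p = 0.0286 in an exact two-sided permutation test, the smallest value that 4 against 4 arrays allow, and an adjusted p of 0.171 over the 36 tests made. With this floor a test can pass at 0.05 only if most of the 36 reach it. That 0 of 36 passed therefore says little. In 6 of 36 the arrays did not overlap. The other 3 of these 6 were miR-322 minus miR-195 in mutants against controls at E17 (0.21 higher) and with age in controls (-1.44) and in mutants (-0.77). The paper selected miR-195 from these same arrays as lower in p4 mutants and higher with age in controls. Its part in the values at p4 and with age in controls was thus known in advance. How often other pairs of miRNAs stand apart was not tested. Without normalization the 3 genotype values at p4 were 1.38, 0.82 and 1.58, while that of miR-322 minus miR-195 at E17 turned to -0.07.

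Within the cluster, of the 20 comparisons of another product with miR-322, 0 had arrays that did not overlap, and at p4 they ran from -0.30 for miR-351 (exact permutation p = 0.0571) to -0.13 for miR-503 (exact permutation p = 0.286). All 5 of these turned sign without normalization, where they ran from 0.20 for miR-503 to 0.37 for miR-450a-5p. For miR-351, the difference to miR-125b-5p, which has the same seed, changed by -0.02 between genotypes at p4 (exact permutation p = 0.971), and by 0.56 without normalization (adjusted exact permutation p = 0.0735). Both members of the miR-351 seed list, miR-125a-5p and miR-125b-5p, were not called at p4, with 0.27 ± 0.264 and 0.12 ± 0.221.

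**Figure D5:**
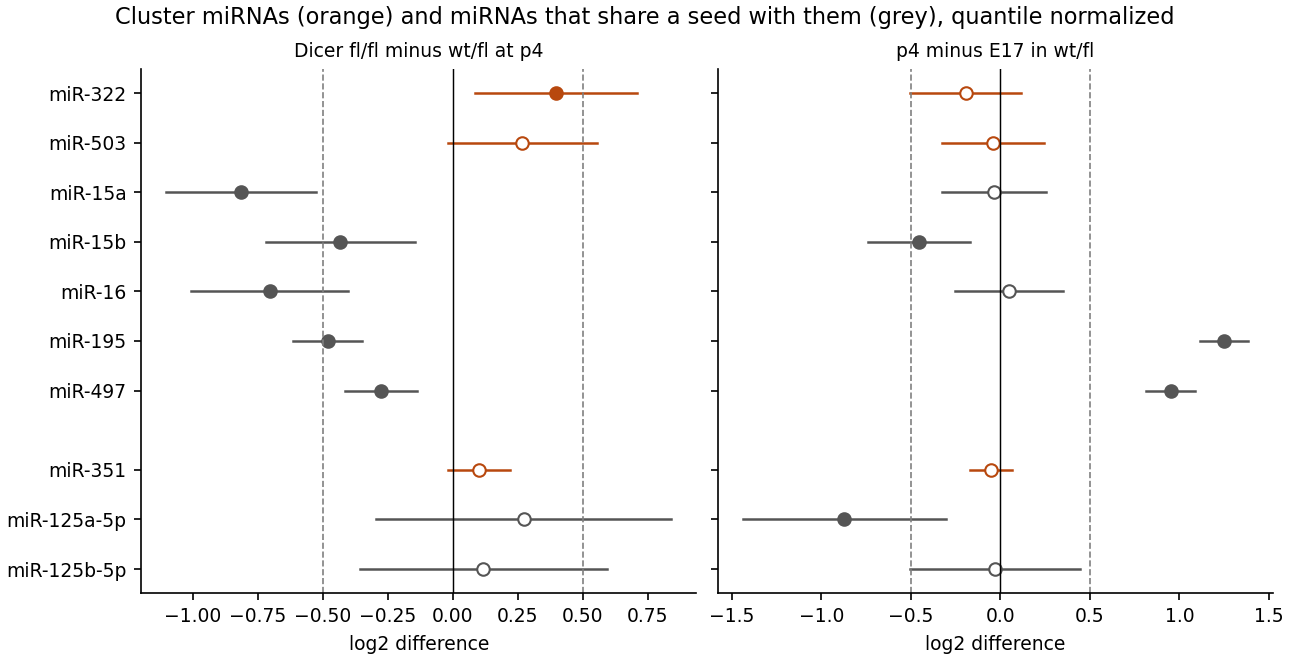
Log2 differences (x axis, circle with 95% interval, 4 arrays per group, quantile normalized) between p4 mutants and controls (left) and between p4 and E17 controls (right) for miR-322, miR-503 and miR-351 (orange) and for miRNAs with the seed of miR-322 or miR-351 (grey). Filled circles have an adjusted p of at most 0.05; at p4 the 5 relatives of miR-322 lie between -0.81 and -0.28 where miR-322 lies at 0.40, a value that is -0.37 without normalization and -0.06 with positive-control scaling.

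The array holds 5 further names of the cluster. miR-503*, miR-450a-3p and miR-450b-5p were detected on 0 of the 16 arrays, and miR-542-5p and miR-450b-3p passed the filter. At p4 in mutants, miR-542-5p was 0.38 ± 0.0893 (SE) higher (limma adjusted p = 0.00283) and miR-450b-3p 0.18 ± 0.0588 higher (adjusted p = 0.0254), both under the size limit. The miR-450b-3p value was -0.09 without normalization, where the median of all miRNAs was -0.19, and -0.11 in the authors' deposited table. The miR-542-5p value was above 0 under all 7 ways of processing. miR-542-5p had p4 signals of 6.83, 6.83, 6.73 and 6.78 in controls and 7.23, 7.34, 6.98 and 7.16 in mutants, without overlap. In mutants it was also 0.33 ± 0.0893 higher at p4 than at E17 (limma adjusted p = 0.0148), whereas its other arm miR-542-3p had -0.08. With positive-control scaling this miR-542-5p value was -0.73, where the median of all miRNAs was -1.10.

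Across the 16 arrays the profiles of the 6 products correlated with each other, as a description of arrays that share a normalization, with r between 0.392 and 0.822 over the 15 pairs. After the group means were taken out, miR-450a-5p and miR-542-3p kept r = 0.804 and miR-503 and miR-351 kept r = 0.783, both pairs of probes for different hairpins. miR-322 and miR-322*, the 2 arms of 1 hairpin, had r = 0.436 and, without the group means, 0.0104. Among the 275 other expressed miRNAs, the 5 whose profile was most like the mean of the members were miR-377 (r = 0.893), miR-199a-5p (0.884), miR-136 (0.856), miR-379 (0.850) and miR-411 (0.844). After quantile normalization their p4 differences between mutants and controls ran from 0.50 for miR-377 to 1.14 for miR-199a-5p, which is also in the fibroblast list of the next paragraph.

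Some marker miRNAs of the cell types of the nerve differed between genotypes, and others were not called. Of the Schwann cell list (miR-338-3p, miR-204, miR-138), 3 of 3 were called lower in p4 mutants, as were 10.7% of all expressed miRNAs. All 3 are among the miRNAs that the paper selected from these same arrays as lower in p4 mutants. Their fall at p4 was thus known in advance and is no independent result. Their share of the array signal was 3.38% to 4.58% in p4 controls and 0.408% to 0.626% in p4 mutants. Of the fibroblast and smooth muscle list (miR-143, miR-145, miR-199a-3p, miR-199a-5p, miR-214), 3 of the 4 expressed were called higher in mutants at both ages. Among all expressed miRNAs this was 10.3% at p4 and 3.56% at E17. The share of the list was 3.2% to 3.67% in p4 controls and 7.07% to 8.72% in p4 mutants, with miR-145 detected on 0 arrays. The skeletal muscle list had 0 of 4 called at p4, with a share of 0.201% to 0.372% in controls and 0.236% to 1.52% in mutants. Called higher in p4 mutants were 1 of 2 endothelial, 1 of 3 expressed leukocyte and 1 of 3 erythroid markers, against 10.3% of all expressed miRNAs. At E17 the Schwann cell share was 1.4% to 2.21% in controls and 1.2% to 1.34% in mutants with 0 of 3 called, and the fibroblast and smooth muscle share 3.51% to 5.94% and 6.96% to 7.69%. The part of these cells in the values of the cluster was not tested.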

How the data were processed

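Total RNA of 16 sciatic nerves was labelled with Cy3 and hybridised to 16 one-colour arrays. The authors deposited scanner output as spot intensity from Agilent Feature Extraction 10.5.1.1, with no normalization between arrays, and a table of quantile-normalized intensity per probe that was used as an alternative. Median spot signals were turned to log2, quantile normalized over the 13000 spots that are not controls and averaged per probe without outlier spots. A miRNA counted as expressed if 0.5 or more of the arrays in any group detected it (281 miRNAs, 681 probes). Differences and their errors come from 1 limma 3.58.1 model (R 4.3.3) of the 4 groups, with Benjamini-Hochberg adjustment across the 681 probes. A miRNA was called if 1 of its probes met both limits (adjusted p 0.05, log2 difference 0.5) and none met them the other way. Within-array differences were tested by exact permutation (scipy). The fit recovered changes put into simulated data. These were larger than the differences of the members after quantile normalization and were added after that step. The simulation thus does not test small changes or shifts of whole arrays. Precision is limited by having 4 arrays per group.

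The members, lists and tests were chosen with earlier results of these data known. Named are the members with all probes, the other products of the cluster, miRNAs with the same seeds and the 5 miRNAs with the most similar profile. Names follow the array design, and sequences and positions are from RefSeq (GRCm38.p6), with 15 of 15 names matched. The genome build behind the array is not given in the sources used here. The arrays are separate mice, and the alternatives tried are listed in the closing section.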

Additional observations from a re-analysis of the deposited data

Results flagged for a closer look

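Of 24 groups of 4 arrays (6 products in 4 groups), 1 had an array far from its group by Dixon's test at the 95% level, which chance gives in about 1 of 20 groups. It was miR-450a-5p on the wt-P4 array 3, with a log2 signal of 6.247 where the other 3 p4 controls lay between 6.428 and 6.454, a gap of 0.874 of the range. This array was also the lowest of the p4 controls for miR-322, miR-503, miR-322*, miR-351 and miR-542-3p. It had 757 outlier spots against 365 to 438 on the other p4 controls, and 228 miRNAs detected against 253 to 260. The fl-P4 array 3 had 790 outlier spots. Without the wt-P4 array 3 the p4 difference of miR-450a-5p was 0.17 with a limma adjusted p of 0.0376.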

How the results depend on the processing

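Of the counts of members called, those for mutants against controls at E17 and for the difference between the mutant effects were 0 under every alternative run. The count of within-array tests passing after adjustment was also 0 throughout, but with p no lower than 0.0286 for 4 against 4 arrays it says little on stability. At p4 the count of members higher in mutants was 5 with 75th percentile scaling, 1 with background-subtracted signals (miR-450a-5p, 0.60, limma adjusted p = 0.0404), 1 in the authors' deposited table (miR-322, 0.64, adjusted p = 0.0435), 2 with no limit on size, and 0 to 1 when 1 array was left out. The p compared with the threshold lay between 0.00859 and 0.888 for miR-322 at p4 over all alternatives and between 0.000122 and 0.999 for miR-450a-5p. With age in controls the count was 2 without normalization (miR-322 higher by 1.00 and miR-503 by 0.72), 5 lower with 75th percentile scaling and 5 lower with positive-control scaling. In mutants it was 1 without normalization (miR-322 higher by 0.51, adjusted p = 0.0328), 1 lower with 75th percentile scaling and 6 lower with positive-control scaling. Signs turned with a call in these 3 and in miR-450a-5p with age in controls (-0.58 with the 75th percentile, -1.02 with positive controls) and, in mutants with positive controls, in miR-351 (-1.16) and miR-450a-5p (-1.08). These scalings also shifted the median of all miRNAs, and with it the background: at p4, 29 higher and 30 lower calls in mutants became 1 and 89 without normalization, 169 and 41 with the 75th percentile, 3 and 42 with positive controls, 74 and 74 with background-subtracted signals, 83 and 85 with no limit on size and 6 and 8 with a limit of 1. At E17 the 17 calls over all miRNAs were 0 with a limit of 1, 47 with no limit and 3 to 25 otherwise. With age in controls 57 calls became 13 to 235, in mutants 30 became 6 to 264, and for the difference between the mutant effects 27 became 7 to 86. The methods' t-test called 57 miRNAs at p4 before adjustment and 56 after, and 0 members. In 164 of the 1428 comparisons of single values the sign changed with no call on either side.

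The methods describe littermate pairs, but no label ties the replicate numbers to pairs. Arrays of the same number had deviations correlated from -0.519 to 0.0901 at E17 and from -0.281 to 0.459 at p4, so the numbers were not taken as pairs. With the replicate number as a block, 0 members were called in each comparison, and miR-322 at p4 kept 0.40 with an adjusted p of 0.0587. Normexp on mean signals was not run because the files used here hold median signals, on which it was run instead, a choice made after seeing the data that left every count at 0. The dim products lie close to background, which limits what can be said of their size of change.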
